A study of Arabidopsis thaliana with 6 samples.

Results

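The genes described here encode the acidic proteins of the cytosolic ribosomal P-stalk, P0, P1, P2 and P3. They were chosen by locus, as 10 named genes of these proteins for which the array annotation held a probe set listing that gene alone. This choice did not take in 4 further genes of the P-protein families that also had such a probe set, which are described separately. Each of the 10 had 1 such probe set, among 22746 tested and 13286 genes with a probe set of their own. The annotation used here gives these genes by locus only, so their assignment to P0, P1, P2 or P3 is background knowledge and was not checked against sequence.

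Whole Arabidopsis thaliana seedlings of the Col-0 ecotype were profiled with Affymetrix ATH1 arrays, which measure transcript levels by hybridisation. Wild type (WT) was compared with the yaf9a yaf9b double mutant in the same background, with 3 arrays per genotype from independent biological replicates. All seedlings were 20 days old, grown on agar plates in short days (8 h light, 16 h dark) at 22 °C without treatment, and were collected at ZT8, the end of the light period. About 250 mg of seedlings were pooled per sample. YAF9A and YAF9B encode related subunits of chromatin complexes that acetylate histones or exchange histone variants. Both genes are mutated in the mutant, so the part of each cannot be told apart, and the labels do not name the alleles. Neither gene was analysed here, since the annotation listed 0 probe sets under either locus, alone or with other genes, and the genotype labels were therefore not checked by the targeted transcripts.

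The P-stalk is a flexible lateral arm of the large, 60S ribosomal subunit. P0 binds ribosomal RNA at the stalk base beside the protein uL11 (RPL12) and carries dimers of P1 and P2, and plants have an additional, plant-specific protein, P3. The acidic tails of these proteins contact the GTPases that drive translation, such as the elongation factor eEF2, and are phosphorylated by casein kinase 2. Each P protein is encoded by several genes in Arabidopsis.

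Arrays of one genotype resembled each other more than arrays of different genotypes, with Pearson r of at least 0.989 within and at most 0.987 between them over all probe sets. Array medians ran from 5.99 to 6.06 (log2 signal). Of 4 measured markers of green shoot tissue 0 rose and 1 fell, and their mean log2 signal was 13.19 to 13.34 in WT and 13.12 to 13.21 in the mutant. The one that fell was LHCB4.2, an antenna protein gene, with a log2 change of -0.33 ± 0.0876 (limma adjusted p = 0.0434), a call that ended without each array in turn. Of 3 measured root markers 0 changed, and their mean log2 signal was 6.83 to 7.07 in WT and 6.67 to 7.05 in the mutant. PYK10, a beta-glucosidase gene of roots, had a log2 change of -0.15 ± 0.149, and the root hair expansin gene EXPA18 had 0.07 ± 0.188. Of 3 measured markers of dividing cells, which build many ribosomes, 0 changed, and their mean was 6.47 to 6.65 in WT and 6.49 to 6.75 in the mutant. The mitotic kinase genes AUR1 and AUR2 had log2 changes of 0.24 ± 0.128 and -0.16 ± 0.131. In both sets without a change, 0 genes had an unadjusted p under 0.05.

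The comparison asked which transcripts differed between the double mutant and WT. Of the 10 P-stalk genes, 4 rose and 0 fell in yaf9a yaf9b at a limma adjusted p under 0.05, and 1 gene each for P0, P1, P2 and P3 was among the 4. Over all 22746 probe sets, 13.1% were called in either direction, 6.52% as higher and 6.61% as lower. The P3 gene AT5G57290 and the P0 gene AT2G40010 rose most, by 0.61 on the log2 scale (1.52-fold and 1.53-fold), followed by the P2 gene AT2G27710 (1.45-fold) and the P1 gene AT1G01100 (1.3-fold). The median log2 change of the 10 genes was 0.3 (1.23-fold), against 0.01 over all probe sets, and the changes ran from -0.07 to 0.61. At an unadjusted p of 0.05, 7 of the 10 were higher and 0 lower, against 13.3% higher and 14.4% lower over all probe sets. These 7 were also the genes whose mutant arrays all lay above all WT arrays, a pattern that 15.6% of all probe sets showed. Most of these genes gave bright signals, and among the 7061 probe sets at least as bright as the second dimmest of the 10, 9.47% were called higher. In RNA from whole seedlings, a change in the share of cells of one type and a change in RNA per cell cannot be told apart.

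**Figure D1:**
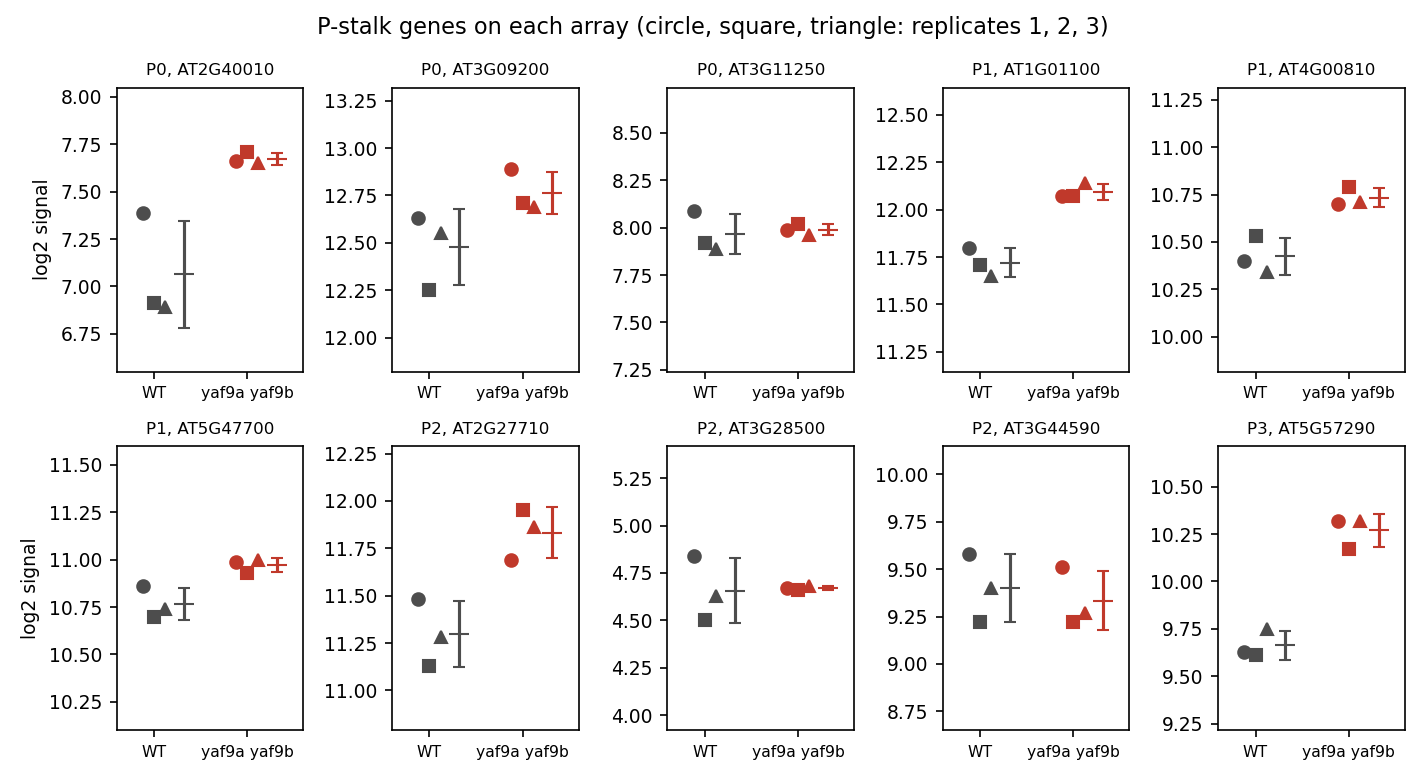
Log2 signal of the 10 P-stalk genes on each of the 6 arrays, 1 panel per gene, with WT in grey and yaf9a yaf9b in red. Circles, squares and triangles are replicates 1, 2 and 3, the bar beside them is the mean ± SD (n = 3), and every y axis spans the same width. In 7 panels all mutant points lie above all WT points, and in those of AT3G11250, AT3G28500 and AT3G44590 the genotypes overlap.

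P0 is the scaffold that anchors the stalk to the ribosome, and 1 of its 3 genes passed the test. AT2G40010 read 7.39, 6.91 and 6.89 on WT arrays 1, 2 and 3 and 7.66, 7.71 and 7.65 on mutant arrays 1, 2 and 3 (log2 signal). All mutant arrays lay above all WT arrays, and WT array 1 was the closest to them, 0.26 below the lowest mutant value. The means were 7.06 ± 0.283 and 7.67 ± 0.0321 (SD, n = 3), and the log2 change was 0.61 ± 0.138 (SE, 95% interval 0.29 to 0.93, limma adjusted p = 0.0263). That call ended without WT array 2 or 3 and without mutant array 1 or 2 (limma adjusted p 0.0928, 0.0702, 0.0638 and 0.0998).

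The P0 gene AT3G09200 read 12.63, 12.25 and 12.55 in WT and 12.89, 12.71 and 12.69 in the mutant. The genotypes were separate by only 0.06, and the log2 change of 0.29 ± 0.12 did not pass (interval 0.01 to 0.56, limma adjusted p = 0.165). The third P0 gene, AT3G11250, read 8.09, 7.92 and 7.89 in WT and 7.99, 8.02 and 7.96 in the mutant. Its mutant values lay inside the WT range, with a log2 change of 0.02 ± 0.0881 (interval -0.18 to 0.23).

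P1 proteins pair with P2 to form the dimers that hang from P0. All 3 P1 genes among the 10 had separate genotypes, and 1 passed the test. AT1G01100 read 11.8, 11.71 and 11.65 in WT and 12.07, 12.07 and 12.14 in the mutant, so that the lowest mutant array was 0.27 above the highest WT array. It rose by 0.37 ± 0.0831 (interval 0.18 to 0.56, limma adjusted p = 0.0246). The call held without WT array 1 and ended without any one of the other 5 arrays (limma adjusted p 0.073 and 0.0594 leaving out WT 2 and WT 3 in turn, and 0.0603, 0.0889 and 0.0626 leaving out mutant 1, 2 and 3).

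AT4G00810 read 10.4, 10.53 and 10.34 in WT and 10.7, 10.79 and 10.71 in the mutant. Its log2 change of 0.31 ± 0.0875 just missed the threshold (interval 0.11 to 0.51, limma adjusted p = 0.0547). It passed after centring on array medians (0.0404), with a trended variance model (0.0349), with array weights (0.0229) and without dim probe sets (0.0412). In the other 10 of 14 alternatives AT4G00810 did not pass. Its limma adjusted p was 0.0643 under cyclic loess, 0.109 with the replicate block and 0.0659 to 0.189 leaving out 1 array. AT5G47700 read 10.86, 10.7 and 10.74 in WT and 10.99, 10.93 and 11 in the mutant, a separation of 0.07. Its log2 change was 0.21 ± 0.0841 (interval 0.01 to 0.4, limma adjusted p = 0.155).

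P2 proteins are the partners of P1 in the stalk dimers. Of their 3 genes among the 10, 1 rose and 0 fell (0 lower at an unadjusted p of 0.05). AT2G27710 read 11.48, 11.13 and 11.28 in WT and 11.69, 11.95 and 11.86 in the mutant. It rose by 0.54 ± 0.117 (interval 0.27 to 0.81, limma adjusted p = 0.0229), and the mutant arrays lay at least 0.21 above WT. The call ended without WT array 2 or 3 and without mutant array 2 (limma adjusted p 0.0757, 0.058 and 0.0977).

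AT3G44590 read 9.58, 9.22 and 9.4 in WT and 9.51, 9.22 and 9.27 in the mutant. The genotypes overlapped throughout and the log2 change was -0.07 ± 0.123 (interval -0.35 to 0.22), the only value below 0 among the 10. AT3G28500 read 4.84, 4.5 and 4.63 in WT and 4.67, 4.66 and 4.68 in the mutant, with a log2 change of 0.01 ± 0.103 (interval -0.22 to 0.25). Its signal lay below the median of every array, unlike that of the other 9 genes. Detection calls were not used here, so whether this transcript was present above background was not tested.

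P3 is the stalk protein found only in plants. The P3 gene among the 10, AT5G57290, read 9.63, 9.61 and 9.75 in WT and 10.32, 10.17 and 10.32 in the mutant. The gap of 0.42 between the highest WT and the lowest mutant array was the widest among the 10 genes. It rose by 0.61 ± 0.0888 (interval 0.4 to 0.81, limma adjusted p = 0.00561). It was the only one of the 4 called genes that kept its call without each array in turn (limma adjusted p 0.0138 to 0.0265).

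Genes of one P protein can be compared within an array, because the difference between a pair of probe sets drops what the array adds to both. Among the 10 genes, the 9 pairs within P0, P1 and P2 were compared between genotypes. The test was an exact two-sided permutation of the 6 arrays, in which 3 against 3 cannot go below p = 0.1. In 6 of the 9 pairs the within-array differences were separate between genotypes, each at that smallest exact p. Adjusted over the 9 pairs, the exact permutation p was 0.15, so no pair could pass and the sizes are given as description. The pairs within a P protein are not independent, since any 2 of their differences fix the other. How often other pairs of probe sets were separate was not computed, so the count of 6 has no background to be read against. Probe sequences were not used here, and whether a probe set also binds transcripts of a paralogue was not tested. Probe sets differ in affinity, so the size of a within-array difference is not a ratio of transcript levels, and only its shift between genotypes is given. For the P2 genes AT2G27710 and AT3G44590, the difference relative to its WT mean was 0, 0.01 and -0.02 in WT and 0.28, 0.83 and 0.69 in the mutant, a shift of 0.6 towards AT2G27710. The 2 pairs with AT3G28500, of which 1 had separate genotypes, are not read further, since its presence above background was not tested.

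Among the P0 genes, the change of AT2G40010 was larger than that of AT3G11250 by 0.59 and than that of AT3G09200 by 0.32. That of AT3G09200 was larger than that of AT3G11250 by 0.26, and all 3 pairs, which are not independent, had separate genotypes. Relative to its WT mean, the difference between AT2G40010 and AT3G09200 was at most 0.17 in WT and at least 0.18 in the mutant. For AT3G09200 and AT3G11250 these values were 0.15 and 0.18, and for AT2G40010 and AT3G11250 they were 0.2 and 0.57. Only the last of these gaps was wide. The P1 genes were closer to one another, with differences between their changes of 0.06, 0.17 and 0.1. The difference of 0.17, between AT1G01100 and AT5G47700, was the only P1 pair with separate genotypes.

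**Figure D2:**
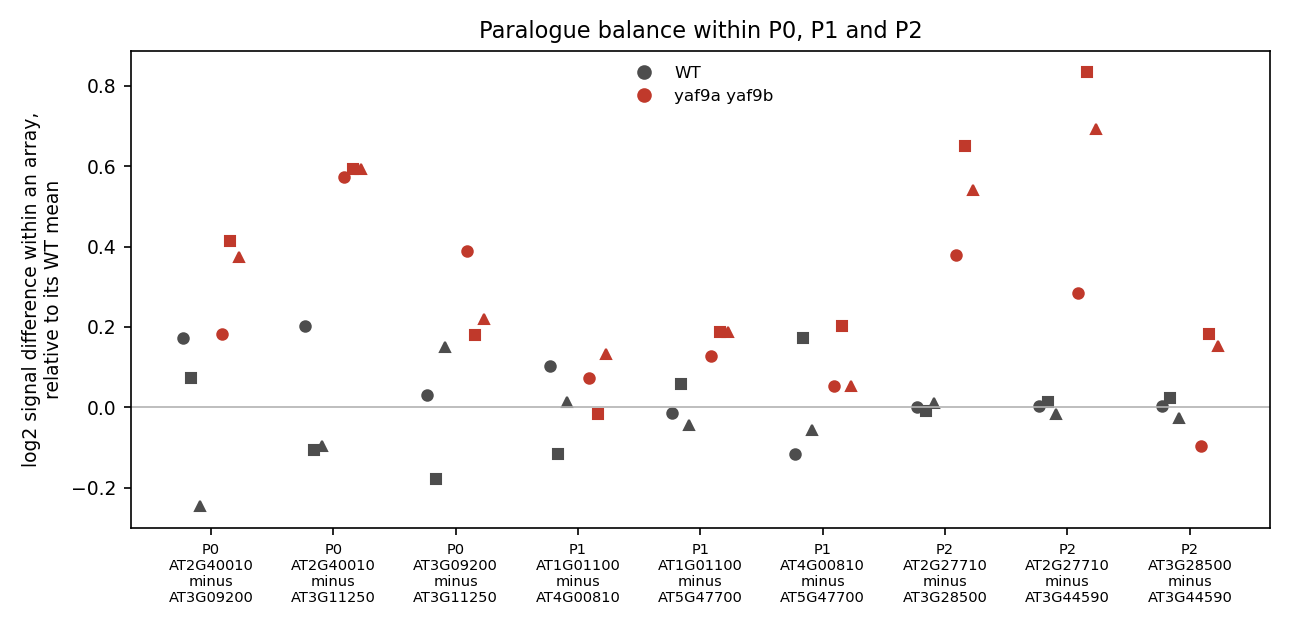
Difference in log2 signal between 2 genes of the same P protein on each array, less the WT mean of that difference, for 9 pairs. WT is grey and yaf9a yaf9b red, and circles, squares and triangles are replicates 1, 2 and 3. The mean of the red points is farthest from 0 where AT2G27710 is set against AT3G44590 (change larger by 0.6) and where AT2G40010 is set against AT3G11250 (0.59).

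WT arrays differed among themselves in a way many of these genes shared. WT array 1 was the highest WT array for 8 of the 10 genes, and WT array 2 the lowest for 6. WT array 1 was the highest for 37 of 67 other 60S genes, 21 of 46 40S genes and 8156 of all 22746 probe sets. WT array 2 was the lowest for 45, 33 and 8914 of the same sets. Centred on each gene's own mean and averaged over the 10 genes, the log2 signal was -0.02, -0.24 and -0.18 on the WT arrays and 0.16, 0.13 and 0.14 on the mutant arrays. The mutant arrays lay within 0.03 of each other, and the step from the highest WT array to the lowest mutant array was smaller than the spread among the WT arrays. Deviations from the genotype means correlated positively in 34 of 45 pairs of these genes, with a median Pearson r of 0.515 over 6 arrays. Among 2211 pairs of other 60S protein genes, 1472 were positive and the median was 0.311. All pairs share the same 6 arrays and their labelling and scaling. Deviations within a genotype also depend on each other, and such correlations were not computed over all probe sets.

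Further genes of the P-protein families had probe sets of their own, outside the 10. Of these 4, 2 rose and 0 fell (0 lower at an unadjusted p of 0.05), with a median log2 change of 0.27. Among all probe sets, 6.52% were called higher and 6.61% lower. The P3 gene AT4G25890 read 8.32, 8.24 and 8.15 in WT and 8.72, 8.47 and 8.69 in the mutant, and rose by 0.39 ± 0.0999 (limma adjusted p = 0.0398). The P2 gene AT2G27720, which has 0 genes between it and AT2G27710 on the chromosome, read 11.69, 11.62 and 11.53 in WT and 12, 11.92 and 11.98 in the mutant. It rose by 0.35 ± 0.0839 (limma adjusted p = 0.0305). Both calls ended without each array in turn, with limma adjusted p of 0.0568 to 0.114 for AT4G25890 and 0.0511 to 0.0922 for AT2G27720, and that of AT4G25890 also with array weights (0.0736). The P1-family gene AT5G24510 (3.33 to 3.54 in WT) and the P2 gene AT5G40040 (3.87 to 4.46 in WT) gave dim signals below the array medians, with log2 changes of 0.09 ± 0.0919 and 0.18 ± 0.154.

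Of 3 genes of the stalk base protein RPL12, 1 rose and 0 fell (0 lower at an unadjusted p of 0.05), and the median log2 change was 0.35. The shares called over all probe sets were 6.52% higher and 6.61% lower. AT5G60670 read 10.23, 9.96 and 10.18 in WT and 10.81, 10.86 and 10.79 in the mutant. It rose by 0.7 ± 0.0966 (limma adjusted p = 0.0047) and kept the call without each array in turn. The others, AT2G37190 and AT3G53430, had separate genotypes as well, with log2 changes of 0.35 ± 0.105 and 0.29 ± 0.0977 (limma adjusted p = 0.0636 and 0.094).

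**Figure D3:**
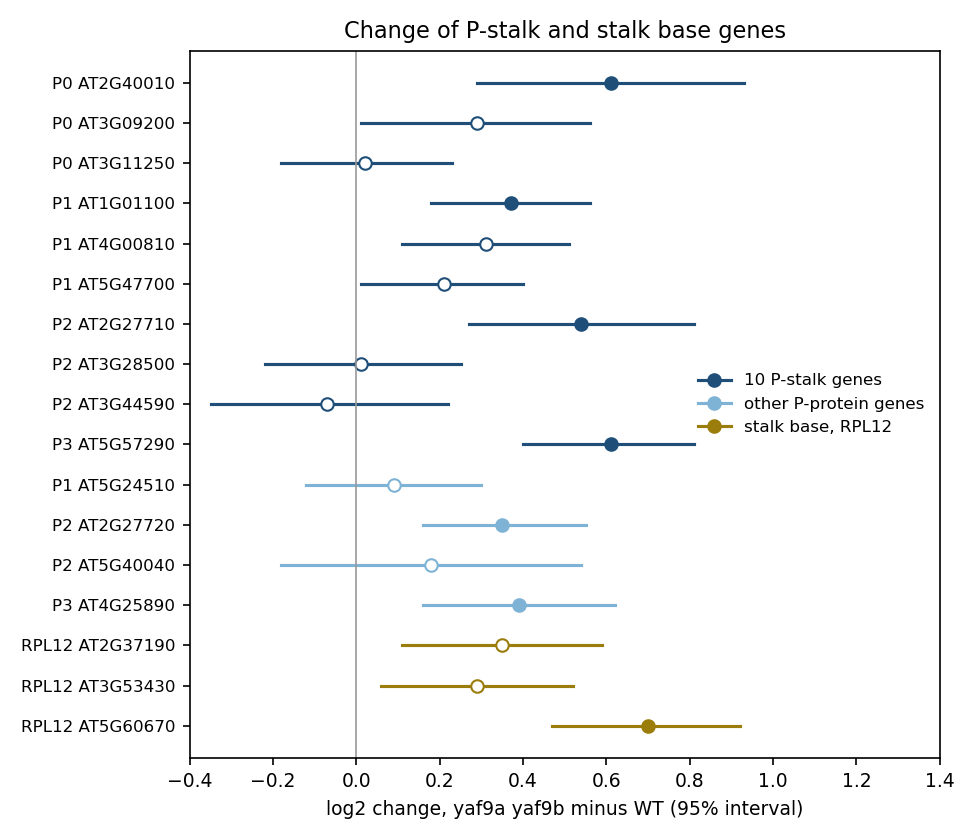
Log2 change (yaf9a yaf9b minus WT) with its 95% interval from limma for the 10 P-stalk genes (dark blue), 4 further P-protein genes (light blue) and 3 RPL12 genes of the stalk base (yellow). Filled points passed an adjusted p of 0.05, and 4 dark blue, 2 light blue and 1 yellow point are filled. AT5G60670 (0.7), AT5G57290 (0.61) and AT2G40010 (0.61) lie farthest right, and AT3G44590 (-0.07) is the only point below 0.

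Genes of factors that meet the stalk, and of further proteins named below, were read from lists of the same kind. Of the 6 listed eEF2 and eEF1A genes and the 5 listed nuclear genes of the plastid ribosome stalk, 0 had a named probe set, and they were not analysed here. Of 2 measured subunits of eEF1B, which reloads eEF1A with GTP, 0 changed (1 higher and 0 lower at an unadjusted p of 0.05). AT5G19510 had a log2 change of 0.2 ± 0.0822 and AT5G12110 of -0.2 ± 0.136. Of 4 measured genes for eIF5B, which joins the ribosomal subunits, the termination factor eRF3 and MRT4, a P0-like assembly factor known from yeast, 0 changed (0 higher and 1 lower at an unadjusted p of 0.05). The eIF5B genes moved in opposite directions without passing, AT1G21160 at -0.47 ± 0.159 (limma adjusted p = 0.0935) and AT1G76820 at 0.22 ± 0.133. With array weights AT1G21160 passed as lower (limma adjusted p = 0.0446). The casein kinase 2 catalytic gene AT2G23070, whose synonyms name it CKA4 and a plastid form, had 0.19 ± 0.0801 (limma adjusted p = 0.168) and was the 1 measured gene of 8 listed.

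The P-stalk genes were set beside the other proteins of the cytosolic ribosome. Of 67 measured genes for other 60S proteins, 33 rose and 0 fell (49.3% rose, 0 lower at an unadjusted p of 0.05), and of 46 measured genes for 40S proteins, 22 rose and 0 fell (47.8%, 0 lower). The share of the P-stalk genes that rose was 40%, or 4 of 10. Over all probe sets, 6.52% were called higher and 6.61% lower, and 9.47% were called higher among the 7061 bright ones. The median log2 change was 0.36 in each of the 2 larger groups, against 0.3 for the P-stalk genes. Per array, the centred mean of the other 60S genes was -0.1, -0.26 and -0.16 in WT and 0.18, 0.15 and 0.19 in the mutant, with the WT arrays in the same order as for the P-stalk genes. Whether the P-stalk genes differ from the rest of the ribosome was not tested.

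**Figure D4:**
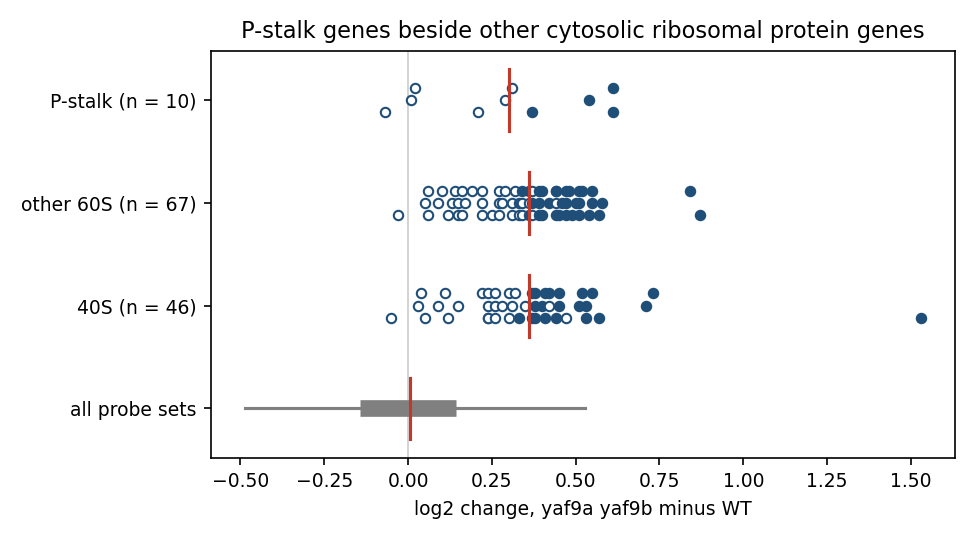
Log2 change (yaf9a yaf9b minus WT) of each P-stalk gene, each measured gene for other 60S proteins and each for 40S proteins, with filled points past an adjusted p of 0.05 and red lines at the medians. For all probe sets the thick bar spans the middle of the distribution (25th to 75th percentile) and the thin line the 5th to the 95th percentile. The medians are 0.3, 0.36, 0.36 and 0.01 from top to bottom.

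Among all genes with a probe set of their own, the 5 whose signal over the 6 arrays was most like the centred mean of the P-stalk genes had Pearson correlations of 0.993 to 0.998. They were AT5G13090 (r = 0.998), AT2G36160 (0.997), AT1G53460 (0.996), AT1G18540 (0.996) and AT5G56100 (0.993). AT2G36160 encodes the 40S protein S14 and AT1G18540 the 60S protein L6, and the other three are given by locus only. AT2G36160 read 11.12, 10.95 and 10.97 in WT and 11.28, 11.24 and 11.25 in the mutant, a log2 change of 0.24 ± 0.0848 that did not pass (limma adjusted p = 0.104). AT1G18540 read 11.32, 10.95 and 11.11 in WT and 11.65, 11.66 and 11.63 in the mutant and rose by 0.52 ± 0.107 (limma adjusted p = 0.019). That call ended without WT array 2 or without mutant array 1 or 2 (limma adjusted p 0.0573, 0.0517 and 0.0816). AT5G56100 rose by 0.63 ± 0.119 and AT1G53460 by 0.36 ± 0.0912 (limma adjusted p = 0.0145 and 0.0371). The call of AT5G56100 ended without mutant array 2 (0.0591), and that of AT1G53460 ended without any one array except WT 1 (0.08 to 0.118). AT5G13090 did not pass (0.28 ± 0.0881, limma adjusted p = 0.0795). With only 6 arrays in 2 genotypes, such correlations mostly follow the difference between genotypes, and they are given as description.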

How the data were processed

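The deposited values are log2 signals, 1 per probe set and array, and the authors used RMA and the affy package, per the submitters' processing notes. RNA (500 ng) was labelled with a 3' in vitro transcription kit, per the labels' protocols. For versions and scan batches, the sources used here give nothing, so a batch following genotype was not checked. RMA gives the probe intensities of all arrays one distribution, so a shift of most transcripts would not show. Precision is limited by the number of arrays.

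Groups follow the titles. After leaving out 64 control probe sets of 22810, limma 3.58.1 under R 4.3.3 gave two-sided tests of mutant minus WT (lmFit and eBayes), with Benjamini-Hochberg adjustment over all 22746 probe sets, a threshold of 0.05 and no filter or block; the script was tested on simulated data. Intervals cover 95%, and ± with a log2 change is its SE. Of the probe sets, 13513 listed 1 gene and 13436 matched RefSeq loci (TAIR10.1). The brightest probe set stood for a gene.

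The genes and lists were chosen with earlier results of these data known. The lists of other 60S and 40S proteins were written from general knowledge after the annotation was seen. Named were the 10 genes, up to 4 passing members of each list (or 2 where none passed, by smallest p), the 5 most similar patterns, and, beyond that rule, the remaining P-protein and RPL12 genes.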

Additional observations from a re-analysis of the deposited data

How the results depend on the processing

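With 14 alternatives, the 4 called P-stalk genes stayed positive in every one, and the count of called P-stalk genes was 4 or 5 under cyclic loess, median centring, the trended variance model, array weights, the filter at the 40th percentile of signal, the suffix filter and the mean per gene. The replicate number as a block left 1 P-stalk gene (AT5G57290, limma adjusted p = 0.0316), 1 of the 14 measured genes of the pathway lists (3 without the block) and 1233 of all probe sets (2985 without it). It ended the calls of AT2G40010, AT1G01100 and AT2G27710 (0.0639, 0.0846 and 0.0866), and those of AT2G27720, AT4G25890, LHCB4.2, AT1G18540 and AT1G53460 (0.0875, 0.0902, 0.121, 0.0583 and 0.0932). As a check of pairing, deviations from the group means were correlated between same-numbered arrays of the 2 genotypes. The correlations were -0.212, 0.0101 and -0.322, and 0 of 6 arrays correlated best with their own number. Deviations within so few arrays depend on each other, so these values cannot decide whether same-numbered arrays were grown or handled together. The mean per gene gave 1587 changed features, since fewer were tested. Leaving out 1 array gave 1 to 4 called P-stalk genes, 1 called pathway gene each time and 963 to 2684 probe sets, with fewer arrays in each fit. Only 1 P-stalk gene was called without WT array 2, WT array 3 or mutant array 2, and 2 without mutant array 1. The median log2 change of the P-stalk genes was 0.25 after cyclic loess, 0.33 after median centring and 0.27 to 0.33 leaving out 1 array, and the cause was not tested. Genes that did not pass changed sign: AT3G28500 was at -0.03 with array weights and -0.07 to 0.1 leaving out 1 array, AT3G11250 at -0.02 to 0.08, AT3G44590 at -0.16 to 0.02, EXPA18 at -0.09 to 0.24 and PYK10 at -0.25 to 0.02. The differences between paralogues kept their sign under cyclic loess, the suffix filter, the mean per gene and leaving out 1 array. They were not computed in the other alternatives. Median centring also ended the LHCB4.2 call (0.0631).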

Other observations

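The spread between replicates of the P-stalk genes was not the same in the genotypes. The SD over 3 arrays was smaller in yaf9a yaf9b than in WT for 9 of the 10 P-stalk genes, the exception being the P3 gene AT5G57290 (0.0757 in WT and 0.0866 in the mutant). The widest contrasts were the P0 gene AT2G40010, with 0.283 in WT and 0.0321 in the mutant, and AT3G28500, with 0.172 and 0.01. The signal of AT3G28500 was dim, and its presence above background was not tested. The SD was smaller in the mutant for 53 of 67 genes of other 60S proteins (79.1%), for 36 of 46 genes of 40S proteins (78.3%) and for 12600 of all 22746 probe sets (55.4%). These genes share the same 6 arrays, and the difference in spread was not tested.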
